A study of Saccharomyces cerevisiae with 10 samples.

Results

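The transcript levels of a budding yeast strain carrying skp1-25, a temperature-sensitive allele of SKP1, were compared with those of 4 other temperature-sensitive strains. The strain was represented by 2 of the 10 arrays of the series, 1 from cells kept at room temperature (25 °C) and 1 from cells held for 1 h at 35 °C, and the other 8 arrays came from the other 4 strains at the same temperatures. What was compared was the standing level, meaning the level of a gene in the strain at both temperatures, and not its shift on warming. A gene was taken as outside the range when both skp1-25 arrays lay above the highest, or both below the lowest, of the 8 other arrays, and 532 of the 5449 measured genes met this rule.

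The 5 groups were skp1-25 (strain py1374), skp1-11 (labelled W303), cdc53-1 (py175), cdc34-3 (py24) and cdc4-3 (py187), all grown to mid-exponential phase in rich glucose medium (YPDA). CDC53 encodes the cullin scaffold, CDC34 the ubiquitin-conjugating enzyme and CDC4 a substrate-binding F-box protein of the same ubiquitin ligase, the SCF, so that every group carried an impaired SCF gene and an SCF-intact strain is not among the samples analysed here. Each strain and temperature was measured on 1 Affymetrix array. The labels do not mention repeated cultures, and the background of a strain cannot be told apart from its allele.

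Skp1 links the cullin to the F-box proteins, which bring in the substrates of the SCF. It is also a subunit of CBF3, the complex that binds centromeric DNA, and of RAVE, which assembles the proton pump of the vacuole. Budding yeast takes up iron by reducing it at the cell surface and importing it through a ferroxidase and permease pair, or by importing siderophores, the iron chelators that microbes secrete. The transcription factors Aft1 and Aft2 switch on these genes when iron is scarce. Iron is in turn built into the haem groups and iron-sulfur clusters of the respiratory chain, whose genes are repressed on glucose and activated by the Hap2/3/4/5 complex.

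All values are levels on a log2 scale as deposited, with no missing value. Array medians ran from 10.96 to 11.14, and Pearson correlations between arrays across probe sets ran from 0.908 to 0.981. The skp1-25 arrays carried the transcripts of a haploid strain of mating type a: the pheromone receptor gene STE2 was at 13.24 (room temperature) and 12.15 (35 °C), and the haploid-specific Gγ gene STE18 at 10.12 and 10.42. BAR1, the alpha-factor protease gene, was an exception at 7.86 and 7.71, within the range of the other arrays. Of the mating-type, haploid and marker genes listed, 0 of 28 lay outside the range. In cdc53-1 6 of the 7 a-specific and 10 of the 10 haploid-specific genes lay below all other arrays, against 407 of all 5449 genes. For these genes the mean of the other strains therefore joins unlike strains. As 1 of the 4 other strains, cdc53-1 also enters every other mean and range below. Whether its cell type bears on further genes was not tested. Temperature-sensitive alleles act on the protein, and the level of the mutated gene therefore does not check the labels.

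In skp1-25, 255 genes lay above the range of all other arrays (4.68% of those measured) and 277 below it (5.08%), which makes 9.76% on either side. Most lay only just outside. The median gap between the nearest skp1-25 array and the nearest other array was 0.063 above and 0.092 below, a gap of at least 0.5 was found for 13 and 10 genes, and a gap of at least 1 for 2 and 0. The same rule, applied to each of the other strains against the rest, gave 194 above and 407 below in cdc53-1, 115 and 74 in cdc34-3, 278 and 109 in cdc4-3 and 219 and 276 in skp1-11, counts that share arrays with those of skp1-25. A strain thus had a set of genes outside the others' range whichever strain was singled out, and skp1-25 did not have the most. A gap of at least 0.5 was found for 16 genes above and 52 below in cdc53-1, and for 21 and 40 in skp1-11. It was found for 38 and 4 in cdc4-3 and for 1 and 1 in cdc34-3. A gap of at least 1 was found for 5 and 22 in cdc53-1 and for 8 and 21 in skp1-11. It was found for 15 and 1 in cdc4-3 and for 0 and 1 in cdc34-3. At both gaps skp1-25 had fewer genes than cdc53-1 and skp1-11 on each side, and fewer above than cdc4-3. At 0.5 it had more below than cdc4-3.

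Both skp1-25 arrays share their strain, so the test used 1 mean per strain over its room temperature and 35 °C arrays and set the skp1-25 mean against the means of the other 4 strains with limma, on the assumption that the lone strain varies like the others. After Benjamini-Hochberg adjustment over all 5449 genes, 0 genes were called higher and 0 lower (0% each). The smallest adjusted p from limma was 0.785, while 115 genes were higher and 194 lower at an unadjusted p under 0.05. With strain as a random block over the 10 arrays limma likewise called 0 and 0 genes (120 and 222 at an unadjusted p under 0.05), with a smallest adjusted p of 0.34. The fit on strain means did call genes with cdc53-1 or skp1-11 as the lone strain, but none with cdc34-3 or cdc4-3. An exact permutation test of 1 strain against 4 cannot give a p under 0.2. The differences below are therefore descriptions of these strains, given as skp1-25 minus the mean of the other 4 strain means, ± SE from limma, and no gene among them passed the test.

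Iron uptake genes made up much of what stood highest in skp1-25. Of the 29 measured genes of a list of iron regulon members, 17 lay above the range of the 8 other arrays and 0 below, where 4.68% of all genes lay above, and 29 of 29 had a higher mean in skp1-25. The median difference of the list was 0.84, with 0.77 at room temperature and 0.99 at 35 °C, against -0.00 over all genes. Among the genes with the largest gaps above the range, 7 of the first 10, 11 of the first 20 and 15 of the first 30 belonged to the list. In bulk RNA a change in the number of cells that express a gene and a change in the RNA per cell cannot be told apart.

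The cell wall mannoproteins that hold siderophores near the cell surface, Fit1, Fit2 and Fit3, had all 3 genes above the range. FIT2 had a level of 13.47 (room temperature) and 13.66 (35 °C) in skp1-25, compared with a lowest value of 10.06, a median of 10.88 and a highest of 12.04 on the other 8 arrays, a difference of 2.55 ± 0.53 or 5.84-fold. FIT1 stood at 11.05 and 10.90, against 8.48, 9.33 and 10.28, and differed by 1.62 ± 0.33. FIT3 stood at 13.36 and 13.58, against 11.90, 12.32 and 12.97, and differed by 1.14 ± 0.24. For none of these genes did an array of another strain reach the lower skp1-25 array.

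The siderophore transporters had 4 of 4 genes above the range. ARN1, a ferrichrome transporter gene, was at 12.28 and 12.24 in skp1-25 and at 10.50, 10.85 and 11.09 (lowest, median and highest) elsewhere, a difference of 1.45 ± 0.22. ARN2 was at 12.57 and 11.95, against 9.44, 10.16 and 11.50, which is 2.03 ± 0.50 higher. SIT1, the ferrioxamine transporter gene, was at 13.38 and 13.24, against 10.67, 12.05 and 12.64. Its difference was 1.49 ± 0.40. ENB1, the enterobactin transporter gene, was at 12.62 at both temperatures, against 10.50, 11.31 and 11.95, and its difference was 1.34 ± 0.44.

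**Figure D1:**
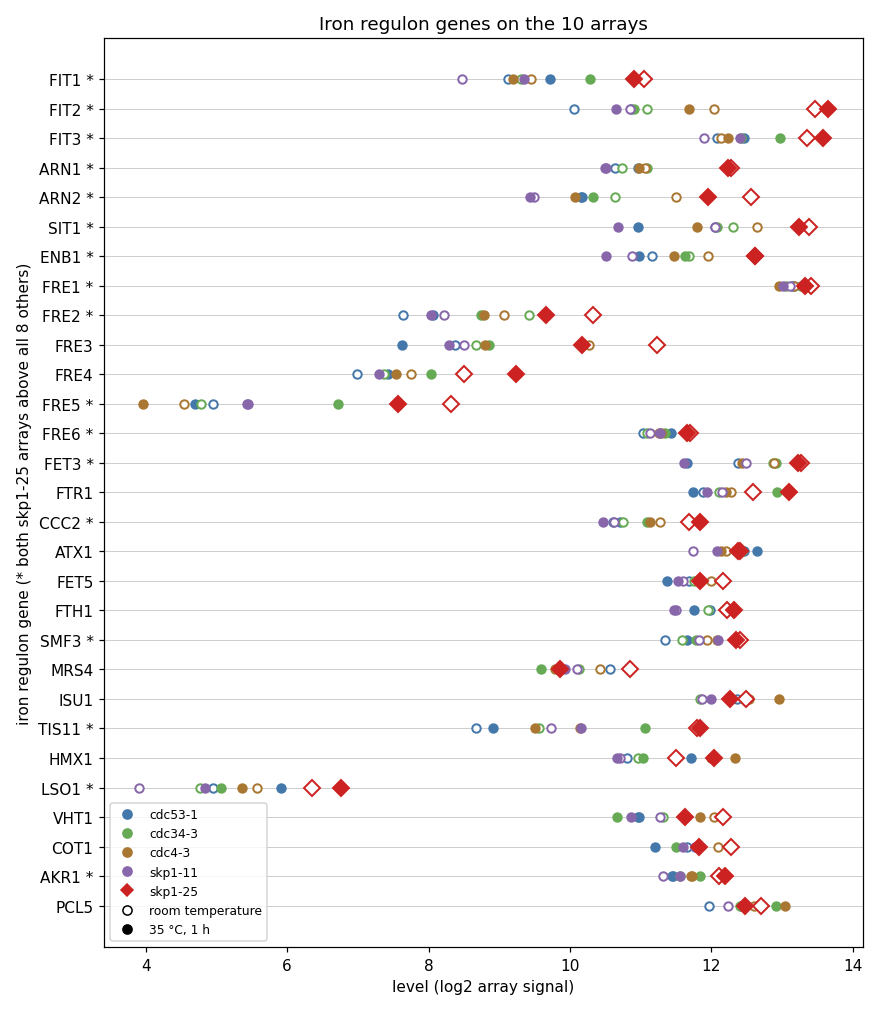
Log2 levels of iron uptake genes on each of the 10 arrays, with skp1-25 marked apart from the other 4 strains at room temperature and at 35 °C. For the genes outside the range both skp1-25 points lie to the right of every other point, as for FIT2 at 13.47 and 13.66 against at most 12.04.

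Metalloreductases, which reduce iron and copper before uptake, were mixed, with 4 of 6 genes above the range. FRE5 stood at 8.31 and 7.57 in skp1-25 and at 3.96, 4.87 and 6.73 elsewhere, values near the bottom of the scale whose signal over background is unknown, so no fold is given. FRE2, a ferric reductase gene, stood at 10.33 and 9.66, against 7.64, 8.48 and 9.42, and FRE6, whose product works at the vacuole, at 11.70 and 11.66, against 11.03, 11.27 and 11.44. FRE1, the main surface reductase gene, was only just outside, at 13.40 and 13.32 against a highest other value of 13.27. FRE3 and FRE4 were inside the range despite differences of 2.03 and 1.25. The 35 °C array of FRE3 at 10.16 was under the 10.27 of the highest other array, from room temperature, though over the 8.85 of the highest other array at 35 °C, and the room temperature array of FRE4 equalled the highest other value of 8.51.

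Of the high-affinity uptake pair, the ferroxidase gene FET3 was above the range and the permease gene FTR1 was not. FET3 stood at 13.26 and 13.23 in skp1-25, against 11.61, 12.46 and 12.91, a difference of 0.84 ± 0.40. FTR1 stood at 12.59 and 13.10, against 11.74, 12.13 and 12.93, so that its room temperature array lay under the highest other array, from cdc34-3 at 35 °C, although each skp1-25 array exceeded the 4 others of its own temperature (highest 12.28 and 12.93). CCC2, which encodes the pump that supplies copper to Fet3, was above the range at 11.69 and 11.84 (highest other 11.28), whereas the copper chaperone gene ATX1 was inside it, at 12.41 and 12.38 with a highest other value of 12.64.

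Genes for moving iron inside the cell differed less. SMF3, a vacuolar iron exporter gene, lay above the range at 12.41 and 12.35 against 11.34, 11.80 and 12.09. FET5 and FTH1, the vacuolar counterparts of FET3 and FTR1, lay inside it with differences of 0.31 and 0.35. The mitochondrial carrier gene MRS4 and the iron-sulfur scaffold gene ISU1 were also inside, with differences of 0.31 and 0.07, as was the haem oxygenase gene HMX1 with 0.49 ± 0.56.

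TIS11, also known as CTH2, encodes an RNA-binding protein that promotes the decay of messages for iron-using proteins when iron is scarce. The skp1-25 arrays had it at 11.80 (room temperature) and 11.84 (35 °C), and the other arrays at 8.68, 9.65 and 11.06. The difference was 2.10 ± 0.57, or 4.29-fold. LSO1, a small gene of the iron response, stood at 6.36 and 6.77 against 3.90, 5.01 and 5.91, again at low values, and AKR1, a palmitoyltransferase gene, at 12.11 and 12.20 against 11.32, 11.56 and 11.83. The biotin importer gene VHT1, the vacuolar metal transporter gene COT1 and the cyclin gene PCL5 were inside the range, with differences of 0.65, 0.37 and 0.09.

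Across the 10 arrays the median deviation of the iron list from the mean of each temperature was 0.61 and 0.79 in skp1-25 (room temperature, then 35 °C), 0.15 and 0.03 in cdc4-3, -0.18 and 0.10 in cdc34-3, -0.39 and -0.29 in cdc53-1 and -0.36 and -0.45 in skp1-11. The strain with the other SKP1 allele, skp1-11, had 0 list genes above and 6 below the range of all other arrays. Over all 5449 genes skp1-11 had 219 above and 276 below. For the 17 genes above the range in skp1-25, the nearest other array belonged to cdc34-3 for 9, to cdc4-3 for 5, to cdc53-1 for 2 and to skp1-11 for 1. Without cdc4-3 the iron count was 22, and without each of the other strains it was 17 or 18. Leaving out a strain can only narrow the range, so any such count can only stay the same or rise. On the scale of a median centred or quantile normalized array it was 18 and 17.

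Among the regulators of iron genes only AFT1 lay outside the range, 1 of 7, where 9.76% of all genes lay outside on either side. A count of 1 of 7 does not set the regulators apart from that share. AFT1 stood at 11.18 and 11.29 in skp1-25, against 10.59, 10.79 and 11.01, a difference of 0.44 ± 0.14. Its paralog AFT2 stood at 9.88 and 10.31, inside 9.57 to 10.63. GRX4, whose product is a glutaredoxin that restrains Aft1, stood at 10.58 and 9.76, with only the 35 °C array under the lowest value of all 8 other arrays, 10.28, and both under the lowest of their own temperature (10.65 and 10.28). Its paralog GRX3 and the partner genes FRA1 and BOL2 were inside the range with differences of -0.15, -0.09 and -0.16.

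Genes that store or use iron did not share the position of the uptake genes. CCC1, which encodes the importer that stores iron in the vacuole and is induced when iron is plentiful, was below the range at 10.67 and 10.43 against 10.86, 11.06 and 11.66. Of 24 iron-sulfur cluster assembly genes 3 were below (12.5%, against 5.08% of all genes). They were GRX5 (11.69 and 11.74 against a lowest other value of 11.96), ISA2 and ARH1, the last of which was inside after either scaling. These 3 are mitochondrial and came from 16 such genes, while 0 of 8 cytosolic ones lay outside. Haem synthesis, with 0 of 9 outside and a median difference of -0.11, and a list of 20 other iron-using enzymes, with 0 of 20 and -0.19, had no member outside. The low-affinity iron and zinc list had 1 of 7 genes above, where 4.68% of all genes lay above. It was the vacuolar zinc exporter gene ZRT3, at 12.49 and 12.38 against a highest other value of 12.30.

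FRE7, a metalloreductase gene controlled by copper rather than iron, went the other way, and its gap of 0.782 below the range was matched only by that of CYC7 among the genes named here. It stood at 9.57 and 10.06 in skp1-25, against 10.85, 12.02 and 12.36 elsewhere, a difference of -2.02 ± 0.34 or 4.06-fold lower. The other 9 genes of the copper list lay inside the range, and the list had a median difference of -0.08.

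Respiratory genes stood lower in skp1-25. Of 57 measured genes of the respiratory chain, ATP synthase and tricarboxylic acid cycle, 28 lay below the range of all other arrays and 0 above, where 5.08% of all genes lay below, and 55 of 57 had a lower mean. The median difference of the list was -0.46, with -0.35 at room temperature and -0.57 at 35 °C. Of the genes with the largest gaps below the range, 4 of the first 10, 9 of the first 20 and 11 of the first 30 were in the list. The counts differed by complex, from every subunit of complex II to none of the tricarboxylic acid cycle enzymes outside complex II.

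Complex II, succinate dehydrogenase, feeds electrons from succinate into the chain through a flavin, iron-sulfur clusters and a haem, and 4 of 4 of its genes were below the range. SDH2, the iron-sulfur subunit gene, had a level of 11.37 (room temperature) and 10.36 (35 °C) in skp1-25, compared with a lowest value of 11.84, a median of 12.24 and a highest of 12.86 elsewhere, a difference of -1.44 ± 0.29 or 2.71-fold. SDH1, the flavoprotein gene, stood at 11.15 and 10.69, against 11.77, 12.02 and 12.41, and differed by -1.15 ± 0.19. The membrane anchor genes SDH3 and SDH4 differed by -0.67 ± 0.20 and -0.89 ± 0.16. All 4 genes were lower on the 35 °C array than on the room temperature array, though no gene passed the test of a change of the difference with temperature (limma, smallest adjusted p = 1, 62 higher and 165 lower at an unadjusted p under 0.05).

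Complex III, the cytochrome bc1 complex, had 8 of 9 genes below the range. RIP1, the gene of its Rieske iron-sulfur protein, was at 12.11 and 11.51 in skp1-25 and at 12.28, 12.63 and 13.01 elsewhere, a difference of -0.82 ± 0.24. QCR10 was at 11.69 and 11.93, against 12.32, 12.72 and 13.04, and QCR2, a core protein gene, at 11.92 and 11.89, against 12.34, 12.55 and 12.95. The exception was CYT1, the cytochrome c1 gene, whose room temperature value of 11.48 was over the lowest other value of 11.39, from 35 °C, and under the lowest at room temperature, 11.92.

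Both isoforms of cytochrome c, the carrier between complexes III and IV, were below the range. CYC1, the aerobic isoform gene, stood at 12.22 and 12.11, against 12.85, 13.08 and 13.46, a difference of -0.95 ± 0.20 or 1.93-fold. CYC7, the isoform gene that is favoured at low oxygen, stood at 10.06 and 10.10, against 10.88, 11.74 and 12.29, a difference of -1.57 ± 0.34. It was the only one of 19 hypoxic genes outside the range, where 9.76% of all genes lay outside on either side.

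Complex IV, cytochrome c oxidase, had 8 of 9 nuclear genes below the range. COX6 was at 12.02 and 11.87 in skp1-25 against 12.53, 12.71 and 13.02 elsewhere, and COX5A at 12.24 and 11.90 against 12.68, 12.76 and 13.02. Their differences were -0.80 ± 0.18 and -0.72 ± 0.13. COX12 was only just outside, with a gap of 0.002, and was inside after median centring and after quantile normalization, and the hypoxic isoform gene COX5B was inside, its room temperature value of 10.22 being the same at 2 decimals as the lowest other value.

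ATP synthase had 6 of 16 genes below the range and a smaller median difference of -0.34. INH1, which encodes an inhibitor of the enzyme, was at 11.66 and 11.75 against 12.24, 12.50 and 12.92, the largest difference of the group at -0.86 ± 0.24. ATP1 and ATP2, the genes of the catalytic head, were inside the range with differences of -0.01 and -0.14. The genes below it besides INH1 were those of the stalk and membrane sector subunits ATP4, ATP7, ATP19, ATP20 and TIM11, of which ATP19 was inside after either scaling.

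None of the 6 genes for dehydrogenases that feed the chain from NADH, glycerol phosphate or lactate was outside the range. NDI1, the internal NADH dehydrogenase gene, was at 10.62 and 9.61, with only the 35 °C array under the lowest value of all 8 other arrays, 10.51, and both under the lowest of their own temperature (11.31 and 10.51). CYB2, the L-lactate dehydrogenase gene, had the largest difference of the respiration list at -2.24 ± 0.50. It was at 6.34 (room temperature) and 8.95 (35 °C) against 8.30, 9.86 and 11.67. It was higher at 35 °C in every strain, and each skp1-25 array lay below the 4 others of its own temperature, whose lowest values were 8.30 and 10.22. The 11 other genes of the tricarboxylic acid cycle had a median difference of -0.06 and 0 outside. KGD1, of the oxoglutarate dehydrogenase complex, came nearest to the rule, 0.011 short of it, and ACO1, the iron-sulfur enzyme aconitase, was inside with -0.16 ± 0.22.

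**Figure D2:**
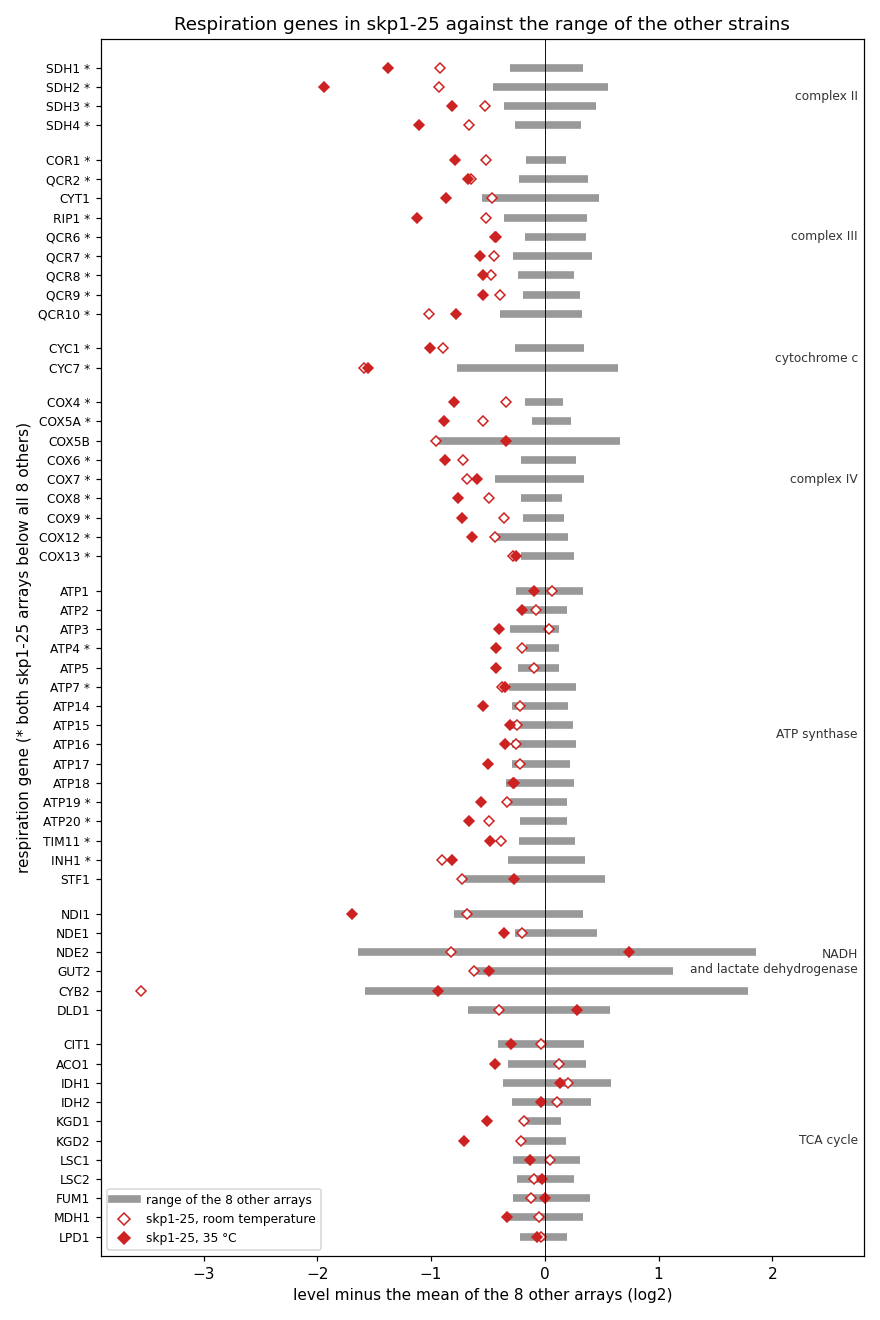
Log2 level of each of the 57 respiratory genes relative to the mean of the 8 other arrays, for skp1-25 at room temperature and 35 °C, grouped by complex; grey bars span the other 8 arrays. Points left of their bar are genes below the range, among them 4 of 4 genes of complex II, 8 of 9 each of complexes III and IV and 0 of 11 of the tricarboxylic acid cycle.

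Of 7 regulators of respiratory genes 1 lay outside the range, where 9.76% of all genes lay outside on either side. HAP5, a DNA-binding subunit gene of the Hap complex, was below it at 9.45 and 9.38, against 9.72, 9.98 and 10.33. HAP4, the gene of its activating subunit, stood at 10.88 and 9.65, and only the 35 °C value was under the lowest other value of 10.63. The difference of HAP4, -0.94, was the largest among the 7 regulators listed. HAP1, HAP2, HAP3, ROX1 and MOT3 were inside, with differences from -0.18 to 0.22.

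Other mitochondrial genes of the nuclear genome were low as well. Of 32 respiratory assembly factors 8 were below the range, where 5.08% of all genes lay below, and 31 had a lower mean. The median difference of these 32 was -0.31. Among the 8 were CBP6, which supports synthesis of cytochrome b (10.38 and 10.30 against a lowest other value of 10.74), the complex IV assembly genes PET100 and SHY1, and COX15, which acts in haem A synthesis. Their differences were -0.73, -0.58, -0.51 and -0.50. Without cdc34-3 the count of assembly genes below was 15, and without skp1-11 it was 13, though leaving out a strain cannot lower it. Coenzyme Q synthesis had 1 of 9 below, COQ6, which was inside after either scaling.

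A list of 43 mitochondrial ribosomal protein genes was put together by symbol after these values had been seen. It had 28 below the range, where 5.08% of all genes lay below, and 43 of 43 with a lower mean. Its median difference was -0.36. MRPS16 stood at 11.29 and 11.32 in skp1-25, against 11.67, 11.76 and 12.06 elsewhere, and MRPL35 at 10.90 and 11.01, against 11.27, 11.36 and 11.73. The strain at the opposite end was cdc4-3, with 22 of the 43 above all other arrays. It also had 7 of 57 respiratory and 12 of 32 assembly genes above, where 278 of all 5449 genes lay above in cdc4-3. Genes of the mitochondrial genome were not analysed here.

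Across the arrays the median deviation of the respiration list was -0.28 and -0.46 in skp1-25 (room temperature, then 35 °C) and -0.11 and -0.10 in skp1-11, and it was above 0 on the arrays of the other strains, from 0.06 in cdc34-3 at both temperatures to 0.34 in cdc4-3 at 35 °C. For the 28 genes below the range the nearest other array was from skp1-11 for 21 and from cdc34-3 for 7. For the iron list, the arrays of skp1-11 and cdc53-1 had the lowest medians at both temperatures.

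**Figure D3:**
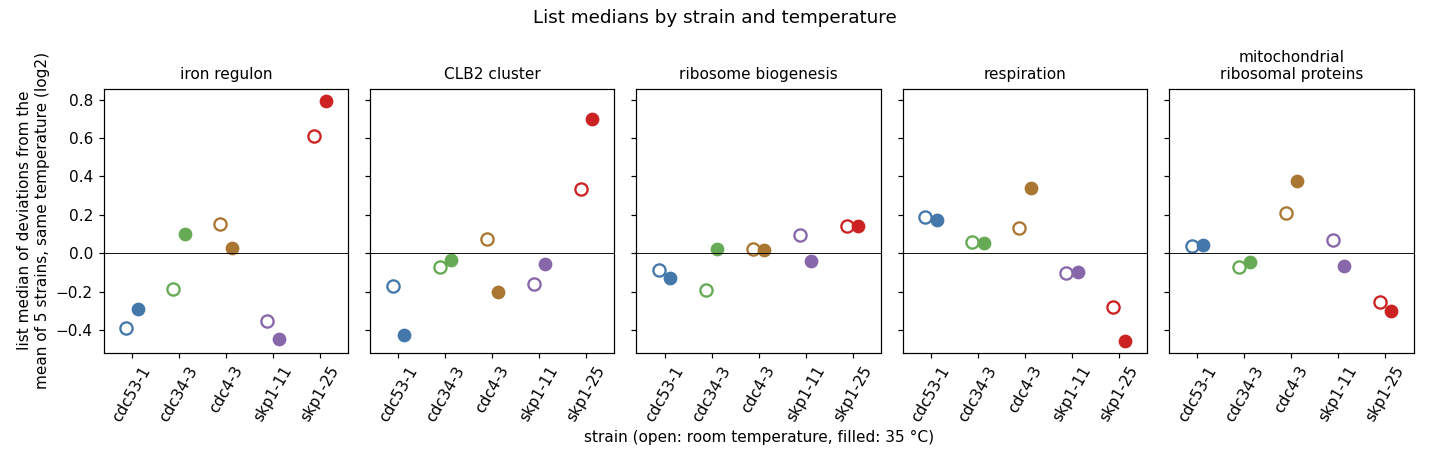
Median deviation of gene lists from the mean of each temperature, in log2, for every strain at room temperature and 35 °C. The iron regulon is highest in skp1-25 (0.61 and 0.79) and the respiration list lowest (-0.28 and -0.46), while skp1-11 is low in both.

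Of 24 glucose-repressed genes outside the respiratory chain 3 were below the range (12.5%, against 5.08% of all genes). They were FOX2, ACS1 and SUC2, and the list median was -0.19. The invertase gene SUC2 stood at 9.23 and 9.09 in skp1-25, but the others spanned 9.31 to 11.74, so that its difference of -1.33 had an SE of 1.00. HXT1, the low-affinity glucose transporter gene, was above the range at 12.61 and 12.44 against 9.89, 11.69 and 12.43, and MIG1, the glucose repressor gene, below it at 10.69 and 10.55 with a lowest other value of 10.71. Both were only just outside, with gaps of 0.008 and 0.023. HXT1 was inside the range after median centring, and MIG1 after median centring and after quantile normalization. Glycolysis had 0 of 15 genes outside, and the retrograde genes, which respond to mitochondrial dysfunction, 0 of 14.

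The 15 widest gaps on each side, among genes whose mean in the higher set of arrays exceeded the median gene, included 6 genes above that are not iron genes and 5 below that are not respiratory genes. VMR1, a vacuolar ABC transporter gene, was at 11.93 and 11.71 in skp1-25, against 10.42, 10.73 and 11.19, and CTL1, an RNA triphosphatase gene, at 12.01 and 12.07, against 10.34, 11.06 and 11.41. PEX3, needed to build peroxisomes, was at 11.31 and 11.35 against 10.34, 10.57 and 10.80. CAR1, the arginase gene, was at 13.34 and 13.32 against 12.48, 12.66 and 12.97. The differences of VMR1, CTL1, PEX3 and CAR1 were 1.07, 1.02, 0.73 and 0.62. The others above were BUD4 and SKP1 itself, with a difference of 0.68 ± 0.13 or 1.61-fold. By systematic name PEX3 is the direct neighbour of SKP1, and their gaps were alike at 0.509 and 0.496. Whether the level of PEX3 is tied to the mutated SKP1 locus was not tested.

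On the lower side, MDG1, a gene linked to pheromone signalling, stood at 10.29 and 10.19 in skp1-25 against 11.05, 11.30 and 11.56, a difference of -1.06 ± 0.17. UBX6, the gene of a UBX-domain protein, stood at 10.03 and 9.96 against 10.77, 10.91 and 11.70. CIR2, similar to the flavoprotein that passes electrons to ubiquinone in human cells, stood at 11.44 and 11.04 against 11.96, 12.18 and 12.51. The remaining genes were FRE7 and UPS1, a mitochondrial lipid transfer gene, at 10.71 and 10.72 against 11.13, 11.22 and 11.83. CIR2 and UPS1 are thus further mitochondrial genes among the 5.

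**Figure D4:**
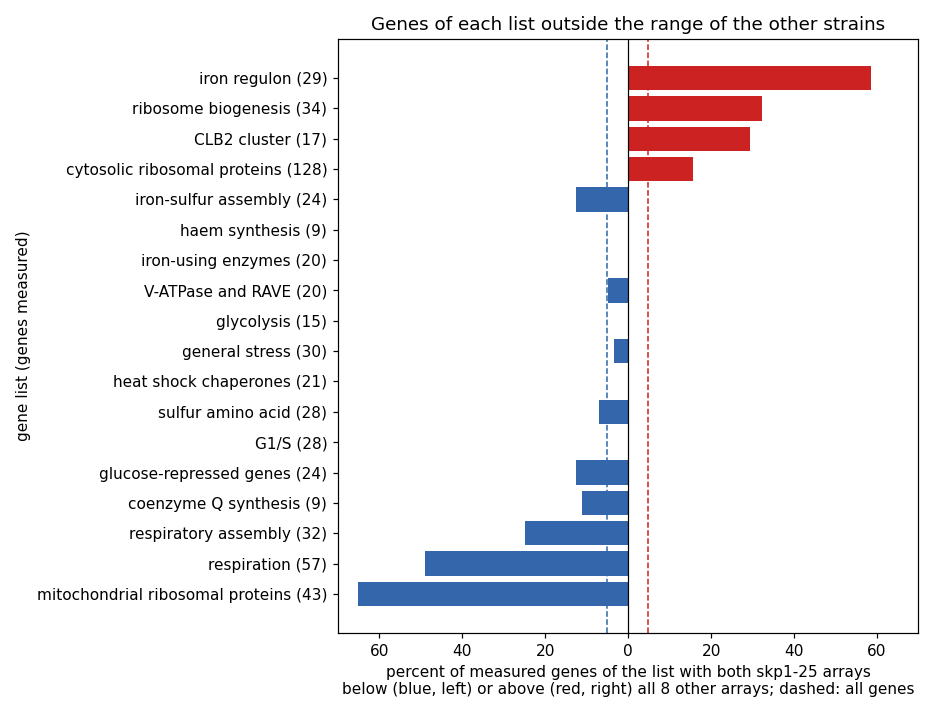
Share of measured genes of selected lists above (right) and below (left) the range of the 8 other arrays in skp1-25, in percent, with the shares over all genes (4.68% and 5.08%) as reference lines. The iron regulon reaches 58.6% above and the respiration list 49.1% below.

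Most other genes tied to Skp1 stood within the range of the other strains, as did most measured genes (9.76% lay outside on either side). Of 17 genes of the SCF and CBF3, SKP1 was the only one outside. CDC53 stood at 11.63 and 11.53, within 11.15 to 11.94, CDC4 at 11.36 and 11.71, within 11.17 to 11.77, and MET30, the F-box gene of sulfur metabolism, at 11.06 and 11.51, within 10.84 to 11.98. The F-box genes had 0 of 9 outside and the other CBF3 genes 0 of 3. Of 20 genes of the vacuolar proton pump and RAVE, RAV2, a RAVE subunit gene, was below the range at 10.75 and 10.81 against a lowest other value of 10.91, and the pump's own subunits had 0 of 15 outside. A list of 20 kinetochore genes had 1 outside, NUF2, above it at 9.15 and 9.44.

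Genes of the CLB2 cluster, which are transcribed as cells enter mitosis, stood higher in skp1-25. Of 17 genes 5 were above the range, BUD4, MYO1, IQG1, HST3 and ALK1, where 4.68% of all genes lay above. All 17 were above the mean of the other strains at both temperatures, where 1881 of all 5449 genes were. The median difference was 0.41 at room temperature and 0.87 at 35 °C. BUD4, for bud site selection, stood at 11.57 and 11.93 against 10.47, 10.90 and 11.27, and MYO1, the myosin of the contractile ring, at 10.95 and 11.28 against 10.13, 10.54 and 10.72. Measured against the 4 other arrays of the same temperature only, 14 of the 17 were above at both temperatures. No other strain had a gene of this list outside the range of the remaining arrays. Genes of the G1 to S transition had 0 of 28 outside, with a median difference of 0.01, and histones 0 of 9.

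Ribosome biogenesis genes were slightly higher, with 11 of 34 above the range, where 4.68% of all genes lay above. A higher mean was found for 34 of 34, at a median difference of only 0.19. UTP20, of the small subunit processome, stood at 12.19 and 12.14 against 11.33, 11.72 and 12.02, and UTP10 at 12.26 and 12.27 against a highest other value of 12.17. The count was 17 without skp1-11, and 10 and 9 after median centring and quantile normalization. Cytosolic ribosomal protein genes, a list also made after their values were seen, had 20 of 128 above and a median difference of 0.06, but only 5 above and 2 below after quantile normalization. Many of them have near-identical copies that a probe set may not separate.

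The stress, nutrient and remaining lists each had at most 3 genes outside the range, where 4.68% of all genes lay above and 5.08% below. The share below was 23.1% for drug efflux, 11.8% for oxidative stress, 7.1% for sulfur amino acid genes and 6.25% for the proteasome. It was 5% for cell wall integrity and 3.3% for general stress. Sulfur amino acid genes had 2 of 28 below, MET16, for sulfate reduction, at 10.55 and 11.57 against a lowest other value of 11.74, and MET22, with a list median of -0.43. General stress genes had 1 of 30 below, the trehalose gene TPS2, with a median of -0.27. Heat shock chaperones (21 genes), Gcn4 targets of amino acid synthesis (32), purine synthesis (13), phosphate (14), ergosterol (23) and maltose and melibiose (12) had 0 outside. Oxidative stress genes had 2 of 17 below, the mitochondrial superoxide dismutase gene SOD2 at 12.11 and 12.25 against 12.28, 12.67 and 13.17, and GSH1 for glutathione synthesis, with gaps of 0.032 and 0.009, and both were inside the range after median centring and after quantile normalization. The proteasome had 2 of 32 below (RPN6 and PUP2, both inside after either scaling) and cell wall integrity 1 of 20 (PIR1). Drug efflux had 3 of 13 below, PDR16 and the low-level genes AZR1 and RSB1. Flocculation and mating lists shared 1 gene above, FIG2, an adhesin gene, at 10.05 and 10.13 against a highest other value of 9.83.

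The pattern held at both temperatures only in part. Over the 5449 genes the skp1-25 difference at room temperature correlated with that at 35 °C with r = 0.581, against 0.704 in cdc53-1, 0.428 in cdc34-3, 0.626 in cdc4-3 and 0.768 in skp1-11. Genes are not independent replicates, and these comparisons share arrays. All but 2 of the 29 iron genes were higher than the mean of the others at both temperatures, and 46 of 57 respiratory genes were lower at both. Of all 5449 genes, 1881 were higher and 1996 lower at both. For the 17 iron and 28 respiratory genes outside the range, the agreement follows from the range rule.

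**Figure D5:**
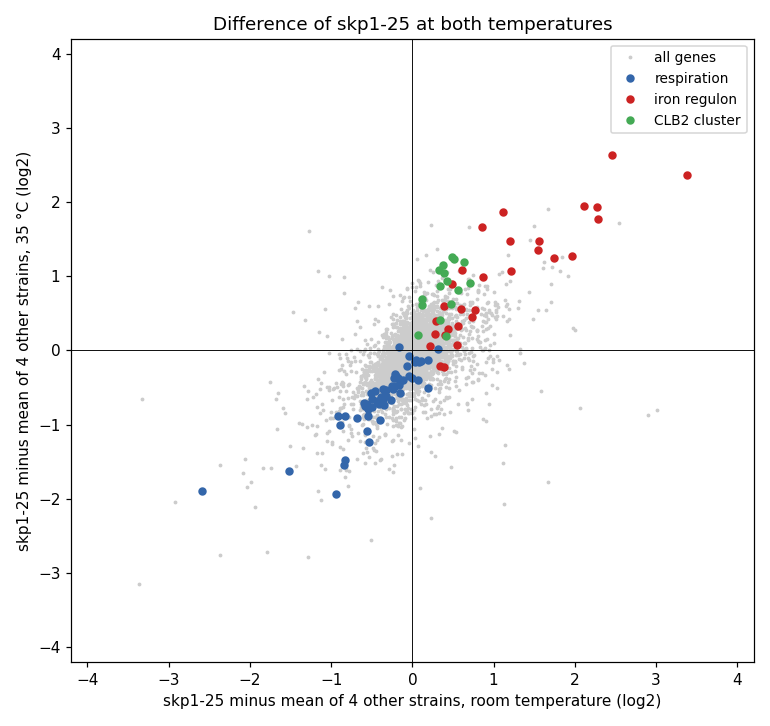
Difference of skp1-25 from the mean of the other 4 strains at room temperature (horizontal) and at 35 °C (vertical), in log2, for all 5449 genes, with iron and respiratory genes marked. Of the iron genes 27 of 29 lie in the upper right, where 1881 of all 5449 genes lie. Of the respiratory genes 46 of 57 lie in the lower left, where 1996 of all genes lie. The r over all genes is 0.581.

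Over the 10 arrays, after the mean of each temperature was taken off, the genes whose levels ran most like FIT3 were FIT1 (r = 0.965), FRE8 (0.947), RRN7 (0.947), KTR7 (0.946) and MEC1 (0.935). Those most like CYC1 were GOR1 (0.99), QCR2 (0.974), MDG1 (0.973), CBP3 (0.972) and MRPL36 (0.968). The 10 arrays come from 5 strains and both arrays of a strain share it, so these are descriptions. By position, the median difference of the 32 chromosome arms lay between -0.09 and 0.07. The left arm of chromosome VIII had the highest share above the range, 6 of 45 genes or 13.3%, among them ARN1, ARN2 and VMR1. Over all genes 4.68% lay above. No more than 3 neighbouring genes in a row were outside the range on the same side, and FIT2, FIT3 and FRE5 formed such a run.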

How the data were processed

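The value table deposited by the authors holds log2 values for 10 Affymetrix arrays, hybridised with biotin-labelled cRNA made from total RNA, per the labels' protocols. The base was inferred from the values, and how probes were summarised or arrays normalized is not given in the sources used here. Of 5716 probe sets, 5498 had 1 gene symbol in the platform annotation, 0 had several and 218 were unnamed and left out. RefSeq names (assembly R64) replaced 12 symbols. For 47 genes with several probe sets the one with the highest mean was kept, leaving 5449 genes.

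Strain means were tested with limma 3.58.1 in R 4.3.3 (lmFit, eBayes, Benjamini-Hochberg, two-sided, threshold 0.05), after a test on simulated data, with 3 residual degrees of freedom between strains. P-values measure the spread between strains. Alternatives were median centring, quantile normalization, a filter on low values (mean over 10.08, the 25th percentile), mean probe sets, single temperatures, arrays as replicates, wider gaps and strains left out. Genes were named if among the 15 widest gaps on either side, among a list's 4 widest, or in the iron, respiration, regulator, SCF, CBF3 and mating lists. The comparison and the lists were chosen with earlier results of these data known. The number of arrays limits the precision.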

Additional observations from a re-analysis of the deposited data

How the results depend on the processing

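The limma counts for skp1-25 stayed at 0 genes higher and 0 lower under every alternative run. The 255 genes above the range became 522 when each skp1-25 array was set only against the arrays of its own temperature, 13 with a gap of at least 0.5 and 2 with a gap of at least 1, and 289 to 423 with a strain left out, the most without cdc34-3. The 277 genes below became 595, 10 and 0 under the same rules, and 354 to 458 with a strain left out, the most without skp1-11; fewer arrays in the range leave more genes outside it. Median centring gave 308 above and 232 below, quantile normalization 285 and 239. The iron regulon median of 0.84 was 0.59 under the filter on low values, which removes low iron genes, and 0.71 to 0.99 under the other alternatives. The respiration median lay between -0.57 and -0.35. Counts per list under these settings were added after seeing the data: 13 to 22 iron genes lay above the range and 25 to 36 respiratory genes below it, and against arrays of the same temperature 13 assembly genes were below and 18 ribosome biogenesis genes above. Of 102 named genes outside the range, 0 changed sign in 12 settings, of which the filter on low values left out some of these genes. For most settings this was fixed in advance. The range rule sets the sign when strains, temperatures or low genes are left out or arrays are taken as replicates. Only the rescaled arrays and the mean of probe sets could have changed a sign. After median centring 10 of the 102 were inside the range and after quantile normalization 15, of which 9 were inside after both (ARH1, COX12, ATP19, COQ6, MIG1, RPN6, PUP2, SOD2 and GSH1), and COX13, RSB1 and 4 cytosolic ribosomal protein genes only after the latter. No paired analysis was possible because each strain and temperature has 1 array and the labels give no shared replicate numbers. The median of the mitochondrial genome list was not run, as 0 of its 27 genes were measured here. Signal over background is unknown for probe sets near the bottom of the scale, such as those of FRE5, LSO1 and AZR1.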
